A study of Mus musculus with 19 samples.

Results

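The cells described here are neurons of the mouse lateral hypothalamic area (LHA) that carried Tac2 transcripts and were neither orexin (Hcrt) nor melanin-concentrating hormone (Pmch) neurons. They were chosen by counts. An LHA well was taken when it had at least 1000 genes, at least 10 counts of the neuronal gene Snap25, under 1% of its mouse counts in Hcrt and in Pmch, fewer than 3 counts of Mc4r, Calcr and Asb4 together, and at least 3 counts of Tac2. Of 1612 LHA wells, 67 met these limits, in 15 of 19 plates, and they are called Tac2 wells. All plates came from 7 males, 6 to 8 weeks old, of the genotype Agrp-IRES-Cre x Ai9, in which Cre is driven by the Agrp gene and switches on the red protein tdTomato. Slices were dissected along the fluorescent AGRP axons, cell bodies without fluorescence were picked by hand, and each 96-well plate is 1 sample of a single group. Libraries were made with Smart-SCRB, a plate method that tags transcripts by well and by molecule with a unique molecular identifier (UMI), so counts are called UMIs here. The labels do not say which mouse each plate came from, so plates may share mice and p-values over them can be too small. Hand-picked wells do not give the share of a cell type in the tissue.

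Tac2 encodes the precursor of neurokinin B, a peptide of the tachykinin family that acts mainly on the receptor encoded by Tacr3. Tac1 encodes the other classical precursor, for substance P and neurokinin A, which act mainly on the receptors encoded by Tacr1 and Tacr2. Tac2 neurons of the arcuate nucleus also make kisspeptin and dynorphin and drive the pulses of reproductive hormones, whereas Tac2 neurons of the extended amygdala are GABAergic. GABA is made by the enzymes encoded by Gad1 and Gad2 and loaded into vesicles by the transporter encoded by Slc32a1.

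Tac2 lies on the forward strand of chromosome 10 (127724478 to 127731768, GRCm38). Its promoter is shown with those of Nts, for neurotensin, and Cartpt, for the CART peptide, peptide genes whose levels per plate did not overlap between Tac2 wells and the Mc4r, Calcr or Asb4 wells below. Each runs from 250 bases before to 50 bases after the RefSeq start (GRCm38.p6), 5′ to 3′ on the strand of the gene. The Tac2 window is chr10:127724228-127724527 (forward), the Nts window chr10:102490369-102490668 (reverse) and the Cartpt window chr13:99900634-99900933 (reverse). Capitals mark matches to CAGCTG, an E-box, or TGACGTCA, a cyclic AMP response element.
Tac2: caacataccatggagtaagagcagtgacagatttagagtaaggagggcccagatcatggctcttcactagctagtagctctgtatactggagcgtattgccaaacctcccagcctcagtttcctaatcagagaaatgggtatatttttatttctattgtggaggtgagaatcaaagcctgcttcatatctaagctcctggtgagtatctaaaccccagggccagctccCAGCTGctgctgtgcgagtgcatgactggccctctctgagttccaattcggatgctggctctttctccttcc
Nts: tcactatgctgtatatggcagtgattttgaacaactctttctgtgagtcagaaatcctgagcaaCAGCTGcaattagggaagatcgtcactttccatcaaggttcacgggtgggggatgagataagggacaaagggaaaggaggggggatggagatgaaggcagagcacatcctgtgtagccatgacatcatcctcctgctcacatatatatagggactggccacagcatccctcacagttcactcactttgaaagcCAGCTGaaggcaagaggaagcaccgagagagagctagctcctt
Cartpt: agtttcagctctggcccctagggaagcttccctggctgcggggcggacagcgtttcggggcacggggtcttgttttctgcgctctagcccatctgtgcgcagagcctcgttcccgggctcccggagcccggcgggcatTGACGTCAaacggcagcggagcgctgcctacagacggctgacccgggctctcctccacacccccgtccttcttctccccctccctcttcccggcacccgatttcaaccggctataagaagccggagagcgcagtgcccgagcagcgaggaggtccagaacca
On either strand, CAGCTG was present in 16.3% of 32851 RefSeq promoters of this length and TGACGTCA in 1.79%. TAATTA, a homeodomain core (5.29%), and TATAAA (13.6%) had no match in these windows. A match is a run of letters and not a binding site. The genes span 102481756 to 102490486 on chromosome 10 (Nts) and 99898489 to 99901091 on chromosome 13 (Cartpt).

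The limits shared by all classes left 360 wells, of which 86 had at least 3 Tac2 UMIs. Of these, 19 were set aside for their Mc4r, Calcr and Asb4 counts, and all 19 had at least 5 UMIs of Gad1 and Gad2 together. Below the Tac2 limit 5 wells had 1 Tac2 UMI, 2 had 2 and the others none. The lowest Tac2 wells had 4, 5, 5, 6 and 7 UMIs, so few wells lay near the limit. There was no Tac2 UMI in the wells labelled ERCC or Empty (exact upper limit 3.49% of wells), and 1 of 68 wells labelled qRNA had 1. Plates share sets of well barcodes by design, and the 67 wells had 63 different barcodes. Tac2 wells made up from 0% to 52.9% of the wells with the shared limits, with the highest share in plate 19 (9 of 17 wells). Plates are numbered in the order of the deposited sample list.

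The label of a GABAergic Tac2 neuron held in the markers that did not choose the wells. Gad1 and Gad2 were not used to choose the Tac2 wells, yet all 67 had at least 5 UMIs of both together, and Gad2 ranged from 2 to 77 UMIs with a median of 18. A UMI of Slc32a1 was found in 47 of 67 wells (70.1%, exact 95% interval 57.7 to 80.7), with at most 6 UMIs in a well. In 936 Hcrt wells, with at least 1% Hcrt, more Hcrt than Pmch and the same limits on genes and Snap25, the share was 2.46% (median 49096.5 UMIs against 25452). Orexin neurons are mainly glutamatergic, so this class serves as the background. At an equal depth of 14000 UMIs the shares were 55.6% and 0.750%. Slc17a6, the vesicular glutamate transporter, had a UMI in 2 of 67 Tac2 wells (2.99%, 0.364 to 10.4) and in 90.2% of Hcrt wells. Exact intervals cover counting error only.

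Microglia genes summed to 1 UMI over the 67 wells, oligodendrocyte precursor genes to 3, ependymal and tanycyte genes to 2, mural genes to 4 and endothelial genes to 41 (at most 228 CPM in a well). Oligodendrocyte genes had 136 UMIs and ranged from 0 to 495 CPM, with Mog and Opalin at 0. CPM is the count scaled to a common total of mouse UMIs. The astrocyte list summed to 1518 UMIs (142 to 2204 CPM per well), with Aldh1l1 and Ntsr2 at 0. Aldoc, a glycolytic enzyme in that list, had 1478 UMIs in the 64 wells of the second comparison below. Of 11 genes of the arcuate Tac2 neuron list 7 had UMIs, 384 in all (196 CPM, against 208 in the other GAD wells and 202 in the Mc4r, Calcr or Asb4 GAD wells described below). Kiss1, Nhlh2, Sox14 and Nr5a2 had none (Kiss1 in 0 of 67 wells, exact upper limit 5.36%). Pdyn, for dynorphin, had a UMI in 12 of 67 wells (17.9%), and in 9.71% of ERCC and empty wells under 1000 genes. Hcrt itself gave 10 to 177 UMIs in every Tac2 well and a median of 15 in those ERCC and empty wells, so peptide genes are counted below at 10 UMIs or more.

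Tac2 levels varied widely between wells. Tac2 had 4 to 167 UMIs per well with a median of 33, which is 150.0 to 3693 CPM with a median of 1302. Summed per plate, it ranged from 393 CPM in plate 5, with 1 well, to 2020 in plate 17, with 3 wells. In the 12 plates with at least 2 wells it averaged 1464 ± 354 CPM (SD, n = 12). Across the 67 wells the Tac2 level was weakly related to the Gad2 level (Pearson r = 0.148, Spearman rho = 0.191), the total UMIs (0.158 and 0.118) and the Gal level (-0.0506 and -0.0224). Pearson r was taken on log2 of each value plus 10, and Spearman rho on the values themselves. These coefficients describe wells that share plates and are given with no test.

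**Figure D1:**
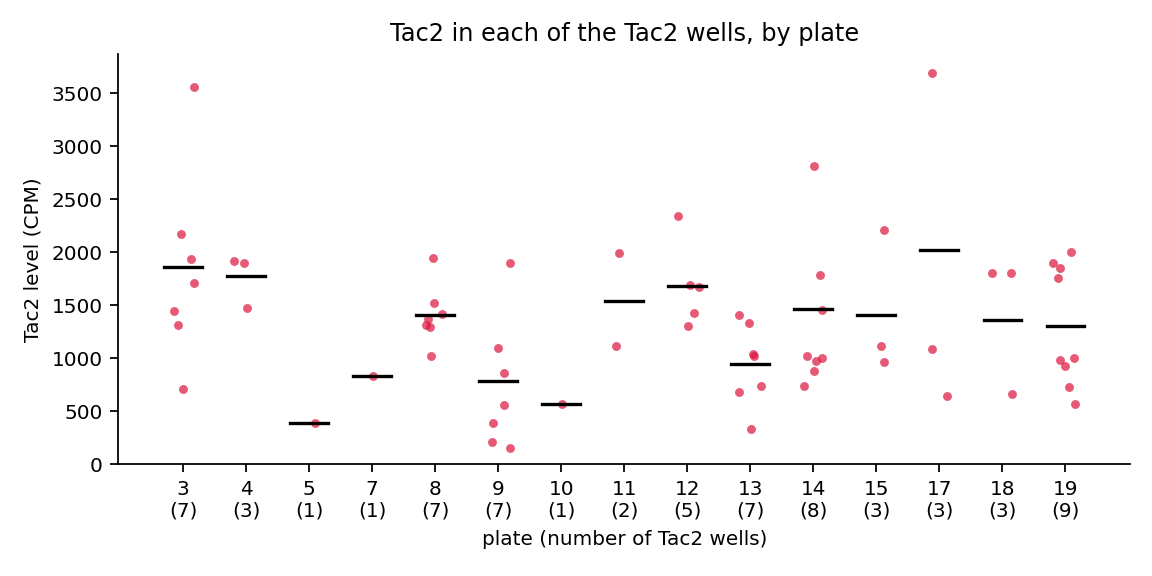
Tac2 level in CPM for each of the 67 Tac2 wells (points, spread sideways at random), by plate, with the number of wells in parentheses and the value of the summed plate as a black bar. Wells of 1 plate differed by several fold, as in plate 9, and the highest well, at 3693 CPM, was in plate 17.

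The Tac2 wells did not share a single second peptide. Gal, for galanin, reached at least 10 UMIs in 30 of 67 wells (44.8%, 32.6 to 57.4), up to 353 UMIs. Penk, for the enkephalins, did so in 19 wells (28.4%, 18.01 to 40.7) and Nts in 15 (22.4%, 13.1 to 34.2). Calb2, the calcium-binding protein calretinin, reached 10 UMIs in 8 wells, Pnoc, for nociceptin, in 7, Tac1 in 7, Cartpt in 6 and Crh, for corticotropin-releasing hormone, in 1. The same limit was reached in Hcrt wells by 16.8% for Gal, 14.9% for Nts, 19.3% for Penk, 1.71% for Cartpt, 0.855% for Tac1 and 0.107% for Pnoc. In ERCC and empty wells under 1000 genes the highest counts were 2 for Cartpt and 1 each for Gal and Nts. Wells with at least 10 Gal UMIs came from 13 plates and those with Nts from 9.

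Gal and Nts were mostly in different Tac2 wells. Both reached 10 UMIs in 2 of 67 wells (2.99%), Gal alone in 28, Nts alone in 13 and neither in 24. In the wells with Mc4r, Calcr or Asb4 described below, both were present in 130 of 171 wells, and in the other GAD wells in 7 of 66. Gal by itself reached 10 UMIs in 44.8% of Tac2, 87.1% of Mc4r, Calcr or Asb4 and 45.5% of other GAD wells. Nts did so in 22.4%, 82.5% and 28.8%. Joint counts depend on how common each gene is, and they were not tested against these shares. At an equal depth of 14000 UMIs both were present in 0 of 63 Tac2 wells, 70.9% of 158 and 4 of 57. With the limit at 3 UMIs, 5 of 67 Tac2 wells had both. Across the 67 wells Gal and Nts levels had a Pearson r of -0.385 on log2(CPM + 10). The Spearman rho was -0.358, and both are given as a description. No Tac2 well with at least 10 Gal UMIs reached that count for Pnoc, Tac1 or Calb2, and 1 did for Cartpt. Penk was shared by both sides, with 8 wells that also had Gal and 4 that also had Nts. Each of the 6 wells with Cartpt also had Nts, and 5 of the 7 Pnoc wells had Calb2.

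**Figure D2:**
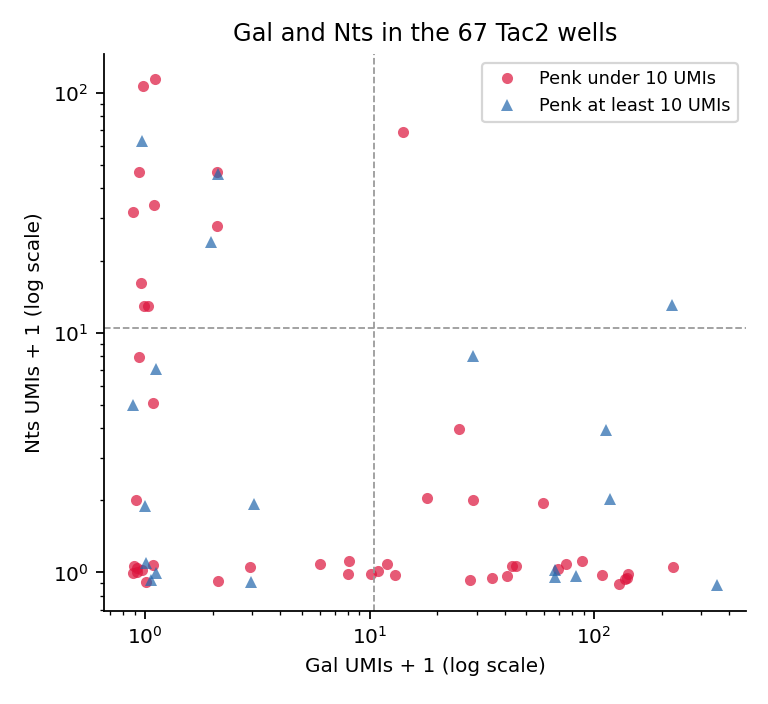
UMIs of Gal and Nts (plus 1, log axes, points shifted slightly at random) in each of the 67 Tac2 wells, with triangles for wells with at least 10 Penk UMIs and dashed lines at the limit of 10 UMIs. Only 2 wells lie above both lines, and 28 lie to the right with little Nts.

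Most Tac2 wells had few of these peptides beside Tac2. Of the genes Gal, Nts, Penk, Pnoc, Tac1 and Cartpt, 12 of 67 wells had none at 10 UMIs, 34 had 1, 14 had 2 and 7 had 3 or more (10.4%). At least 3 of the 6 were reached in 14 of 66 other GAD wells (21.2%) and in 135 of 171 Mc4r, Calcr or Asb4 GAD wells (78.9%). Sst, for somatostatin, had UMIs in 2 Tac2 wells, and Vip, Cck, Trh and Pvalb in none.

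**Figure D3:**
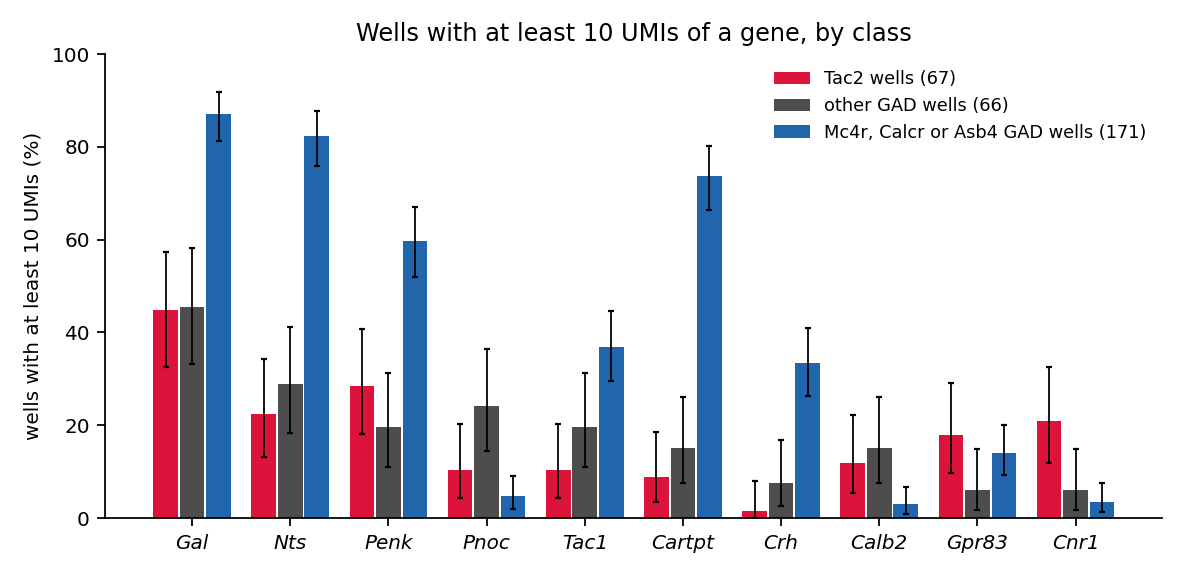
Percent of wells with at least 10 UMIs of 8 peptide or calcium-binding genes and of the receptor genes Gpr83 and Cnr1 in the 67 Tac2, 66 other GAD and 171 Mc4r, Calcr or Asb4 GAD wells, with exact 95% intervals. For Gal the bars stand at 44.8%, 45.5% and 87.1%, and for Cartpt at 8.96%, 15.2% and 73.7%.

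Receptors for tachykinins were seen in few wells. Tacr1 had a UMI in 15 of 67 Tac2 wells (22.4%, 13.1 to 34.2), with at most 6 UMIs, against 5 of 66 other GAD wells (7.58%) and 11 of 171 Mc4r, Calcr or Asb4 GAD wells (6.43%). At an equal depth the shares were 17.5%, 5.26% and 3.16%, and in Hcrt wells 1.39%. Tacr3 had a UMI in 3 Tac2 wells. Both receptors were below the count limit of the tests, so these shares are a description. The same holds for Lhx6, a transcription factor of GABAergic lineages, with a UMI in 7 of the 67 wells. Dlx5, another factor of that lineage, had a UMI in 20 Tac2 wells, Meis2 and Otp in 2 each, and Npy2r, an NPY receptor, in 5.

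The first comparison asked how Tac2 wells differ from other wells of the same plate that held Gad1 or Gad2 UMIs. The reference was the 66 wells with the same limits, fewer than 3 Tac2 UMIs and at least 5 UMIs of Gad1 and Gad2 together, called other GAD wells. Slc17a6 had a UMI in 7 of these 66 wells and at least 10 UMIs in 3, with at most 78. Over all wells it was at 99.4 CPM in this reference and 1.02 in Tac2 wells, so the reference was not purely GABAergic. UMIs of each class were added up within a plate, and 7 plates with at least 2 wells of each class entered (37 and 54 wells). Tac2, which chose the wells, had 791 CPM in the lowest plate, a median of 1466 and 1860 in the highest, against 0, 0 and 12.6. Gad1 averaged 606 ± 140 against 450.2 ± 89.5 CPM and Gad2 824 ± 347 against 701 ± 306 (SD, n = 7), and the plates overlapped for both. These genes were used to choose wells and were not tested.

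With Tac2 set aside, no gene passed in this comparison. edgeR's quasi-likelihood test called 0 of 3438 genes at a Benjamini-Hochberg adjusted p under 0.05, in either direction (0% called). An unadjusted p under 0.05 was reached by 151 genes, no more than that limit passes by chance over 3438 genes. DESeq2 called 5 genes higher (Pmepa1, Cplx1, Ntm and Rab15 among them) and 3 lower (C77370, Car10 and Mydgf), and limma on well means called 5 higher (Pmepa1, Cplx1, Gpr83 and Ntm among them) and 0 lower. With no filter on low counts edgeR called 3 genes higher (Cplx1, Gpr83 and Ntm) and 2 lower, Slc17a6 among them. One reference well, in which oligodendrocyte genes reached 51719 CPM, was the only well of either class over 1% for these genes, and without it edgeR again called 0 genes, with 151 at an unadjusted p under 0.05. Such a test does not show that the classes are alike.

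The genes with the smallest p are given with their values. Ntm, a neuronal adhesion protein of the immunoglobulin family, had 242 to 523 CPM in Tac2 wells (median 387) and 80.8 to 368 in other GAD wells (median 126). It was higher in 7 of 7 plates (log2 fold change 1.39 ± 0.27 (SE), edgeR adjusted p = 0.122), though the classes overlapped between plates. Gpr83, a G protein-coupled receptor, had 163 to 355 CPM (median 227) against 0 to 315 (median 45.4), a log2 fold change of 2.42 ± 0.58 (edgeR adjusted p = 0.344). A Gpr83 UMI was present in 46 of 67 Tac2 wells (68.7%, 56.2 to 79.4) and 17 of 66 other GAD wells (25.8%, 15.8 to 38.0). At equal depth the shares were 66.7% and 21.1%. Hcrt wells had Gpr83 in 62.5% (46.2% at that depth), so it does not mark Tac2 wells within the LHA.

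Cplx1, for complexin, a regulator of vesicle release, was at 705 to 1151 CPM (median 1036) against 278 to 1348 (median 394), with plate 4 alone in the opposite direction. Its log2 fold change of 0.93 ± 0.22 had an edgeR adjusted p of 0.344, and without plate 4 it became 1.16 with an adjusted p of 0.0220, the only call when single plates were left out. Rab15, a small GTPase, was at 2.15 ± 0.59, Gnai1, an inhibitory G protein subunit, at 1.47 ± 0.43, Srp19, of the signal recognition particle, at 0.96 ± 0.26, and Thra, a thyroid hormone receptor, at 0.95 ± 0.26. On the lower side were Car10 (-2.04 ± 0.60), Rab3gap2 (-1.81 ± 0.60), Elmo1 (-1.52 ± 0.49), Mydgf (-1.39 ± 0.36), Unc80, of the sodium leak channel complex (-1.10 ± 0.35), the phosphatase gene Ptpn5 (-1.06 ± 0.30), Nisch (-0.60 ± 0.20) and Snhg11 (-0.39 ± 0.13). Their edgeR adjusted p-values ran from 0.641 for Mydgf to 0.930 for Rab3gap2 and Nisch.

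Peptide and GABA genes were among those without a call. Gal had 346 to 2182 CPM in Tac2 wells and 139 to 2005 in other GAD wells (0.03 ± 0.42, edgeR adjusted p = 0.999), and Nts 195 to 559 against 0 to 772 (0.10 ± 0.61). Penk was at 0.74 ± 0.36, higher in 5 of 7 plates, Pnoc at -1.19 ± 0.87, Cartpt at -1.09 ± 0.92 and Tac1 at -0.59 ± 1.13. Slc32a1 was at -0.13 ± 0.50, Dlx1 at 0.48 ± 0.58, Calb2 at -0.48 ± 0.52 and Calb1, the calcium-binding protein calbindin, at -0.28 ± 0.56. Medians over the tested members were -0.28 for 6 of 37 neuropeptides, -0.13 for 3 of 5 GABA genes and 0.23 for 12 of 52 potassium channels, beside 0.00033 over all 3438 genes.

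Depth differed between these classes. Medians per plate averaged 28474 ± 7286 UMIs in Tac2 wells and 21554 ± 2731 in other GAD wells (SD, n = 7), higher in 7 of 7 plates (exact sign-flip permutation p = 0.0156, two-sided, the smallest 7 plates allow). Whether the limit on Tac2 counts brought in deeper wells was not tested, and the part of depth in the values above was not tested beyond thinning. With wells thinned to 14000 UMIs edgeR again called 0 of 1907 genes. There 96 had an unadjusted p under 0.05, about as many as that limit passes by chance. At that depth Tac2 wells had 3579 ± 195 genes and other GAD wells 3461 ± 260, a difference of 118 ± 140 (SD, n = 7, exact permutation p = 0.0781). Without thinning the difference was 481 genes (exact permutation p = 0.0313).

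The second comparison set the 67 Tac2 wells against 171 wells with the same limits, at least 5 UMIs of Gad1 and Gad2 together and at least 3 of Mc4r, Calcr and Asb4 together. Mc4r encodes the melanocortin receptor that AGRP blocks, Calcr the calcitonin receptor and Asb4 a protein of ubiquitin ligases. The classes were separated by these genes, so their differences, such as 0 Calcr UMIs in the 64 Tac2 wells tested, are a result of the choice. In 12 plates (64 and 151 wells) Gad2 had 817 ± 312 against 697 ± 106.9 CPM, and Slc32a1 had 72.7 ± 33.6 against 53.7 ± 17.96 (SD, n = 12; log2 fold change 0.39 ± 0.34, edgeR adjusted p = 0.563). Over these plates Tac2 reached 281 CPM at most in the reference, where 23 of 151 wells had a UMI.

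Many genes passed here. edgeR called 200 of 3907 genes higher in Tac2 wells (5.12%) and 258 lower (6.6%), 11.7% in all. Among them 175, 60 of which were higher, also changed by 1 or more on the log2 scale, had 20 CPM or more in the class where they were high, and went 1 way in 80% of plates or more. Both comparisons hold the same Tac2 wells, so their values are set side by side and not correlated.

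All 6 tested members of the list of 37 neuropeptides were called lower in Tac2 wells, beside 6.6% of all genes, with a median of -3.40 beside -0.04 over all genes. A gene can pass the count filter through 1 class alone, as Crh did with a median of 0 CPM in Tac2 wells. These 6 therefore do not stand for the whole list. The other members were too low in count to be tested. Among these, Pnoc was at 128 CPM over all Tac2 wells and 52.5 over all reference wells, with at least 10 UMIs in 10.4% and 4.68% of wells. Cartpt had 0 to 282 CPM in Tac2 wells (median 77.2) and 3610 to 15354 in the reference (median 7089). The plate sums of the classes did not overlap (log2 fold change -6.15 ± 0.53, edgeR adjusted p = 1.14e-05). Single wells did, with a lowest Cartpt count of 0 UMIs among all reference wells and a highest of 36 among Tac2 wells. Nts had 0 to 1182 CPM (median 243) against 2663 to 6422 (median 5090). Its plate sums did not overlap either (-4.31 ± 0.52, edgeR adjusted p = 1.96e-04). Crh had 0 to 59.3 CPM against 104.3 to 994, with no overlap of plate sums (-5.37 ± 0.60, edgeR adjusted p = 2.75e-05). A Crh UMI was present in 4 of 64 Tac2 wells.

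Gal differed less. It had 346 to 3520 CPM (median 1032) against 1713 to 3138 (median 2393), was lower in 10 of 12 plates, and the classes overlapped (-1.13 ± 0.27, edgeR adjusted p = 0.0187). In the 7 plates left with Hcrt and Pmch under 0.2% it was at -0.87 ± 0.39 (edgeR adjusted p = 0.409), and with 1 well per class allowed at -1.18 ± 0.41 (0.0936). Tac1 had 0 to 477 CPM (median 53.8) against 55.3 to 1683 (-2.49 ± 0.74, edgeR adjusted p = 0.0497), and Penk 39.1 to 1077 (median 227) against 514 to 1709 (-1.62 ± 0.45, edgeR adjusted p = 0.0383). Both lay near the threshold. Leaving out 1 plate ended the call of Tac1 for plates 3, 4, 8, 11, 12, 13, 15, 17, 18 and 19 (adjusted p 0.0582 to 0.0950) and of Penk for plates 3, 4, 8, 11, 13, 15, 17, 18 and 19 (0.0531 to 0.0799). With the 6 peptide genes removed from the library totals 201 genes were higher and 247 lower. The list of orexin and MCH neuron genes, which holds Cartpt, had a median of 2590 CPM over Tac2 wells and 8690 over reference wells, and the part of such background in these values was not tested.

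Genes of secretory granules moved in both directions. Of 11 tested of 13, 5 were lower and 2 higher, with a median of -0.42, beside 6.6% of all genes lower and 5.12% higher. Vgf, a secreted precursor, had 7.82 to 625 CPM (median 139) against 581 to 1425, a small overlap (-2.65 ± 0.35, edgeR adjusted p = 2.99e-04). The granins Scg3 (-1.52 ± 0.20) and Scg2 (-0.42 ± 0.09) were lower, as were Resp18 (-0.70 ± 0.08) and Pam, the enzyme that amidates peptides (-0.61 ± 0.21). Chga, for chromogranin A (0.81 ± 0.15), and Pcsk1n, an inhibitor of a prohormone convertase (0.50 ± 0.10), were higher.

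**Figure D4:**
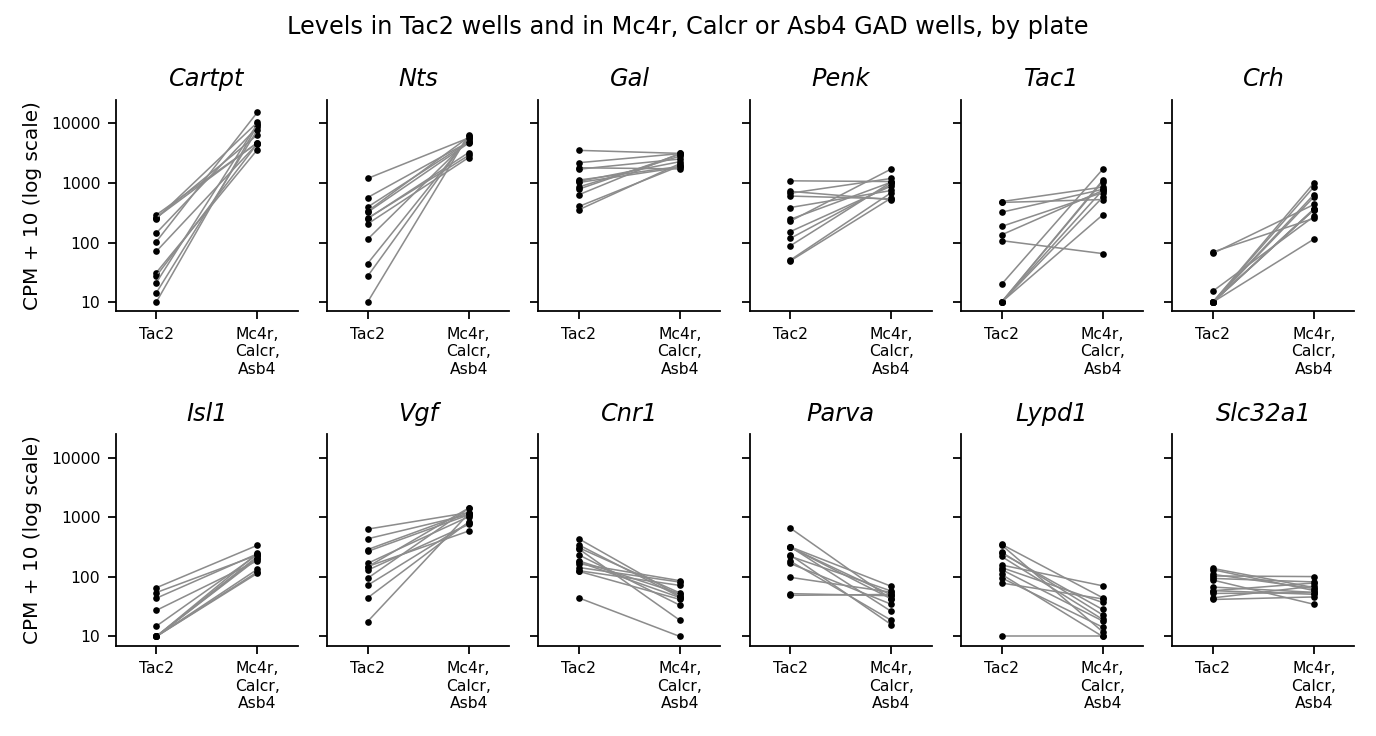
CPM + 10 (log axis) of 12 genes in the Tac2 wells and in the Mc4r, Calcr or Asb4 GAD wells of the same plate, 12 plates, with a line for each plate. Cartpt, Nts, Crh and Isl1 do not overlap between the classes, Gal, Penk and Tac1 do, and Slc32a1 had no call.

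Among transcription factors of GABAergic lineages 3 of 25 were tested and 1 was called, beside 11.7% of all genes. Isl1, a factor of developing hypothalamic neurons, had 0 to 55.8 CPM (median 0) against 105.2 to 330 (median 205). Its plate sums did not overlap (-4.13 ± 0.43, edgeR adjusted p = 1.84e-08). Isl1 passed the count filter through the reference alone, with 25 UMIs in 7 of the 64 Tac2 wells tested, and does not stand for the list. An Isl1 UMI was present in 8 of 67 Tac2 wells (11.9%), 25 of 66 other GAD wells (37.9%) and 143 of 171 reference wells (83.6%), against 10.04% of Hcrt wells. At an equal depth of 14000 UMIs the shares were 9.52%, 35.1% and 77.8%, and 4.50% in Hcrt wells. Dlx1 was at -0.89 ± 0.32 (edgeR adjusted p = 0.0732). The largest falls beside the peptides were in Mt2, a metallothionein (-5.71 ± 0.53), Cited1, a transcriptional coregulator (-5.59 ± 0.46), and Rasgrp1, a Ras activator (-5.43 ± 0.54). They had 6, 9 and 4 UMIs in the 64 Tac2 wells and 830, 1147 and 534 in the 151 reference wells, so they too passed the filter through the reference. Nr3c1, the glucocorticoid receptor, fell by 2.00 on the log2 scale (SE 0.30), and Jun, an immediate early gene, by 1.49 (SE 0.31).

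Lypd1, Cnr1, Pcdh19, Parva and Clstn2 were among the genes with the largest rises in Tac2 wells. Lypd1, a modulator of nicotinic receptors, had 0 to 343 CPM (median 141) against 0 to 61.0 (median 11.2), higher in 11 of 12 plates and at 0 in both classes of plate 11 (3.47 ± 0.43, edgeR adjusted p = 6.07e-07). Cnr1, the cannabinoid receptor of presynaptic terminals, had 34.4 to 426 CPM (median 172) against 0 to 76.5 (2.40 ± 0.33, edgeR adjusted p = 3.27e-06). A Cnr1 UMI was present in 45 of 67 Tac2 wells (67.2%), 48 of 171 reference wells (28.1%) and 25.5% of Hcrt wells, and at equal depth in 60.3%, 25.3% and 12.97%. Other GAD wells had it in 39.4% (29.8% at equal depth) and the 23 glutamate wells, with Slc17a6 and little Gad1 or Gad2, in 52.2% (43.5%). The protocadherin gene Pcdh19 (2.96 ± 0.50), Parva, a focal adhesion protein (2.63 ± 0.36), and Clstn2, a calsyntenin (2.38 ± 0.54), were also higher.

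Side by side, the same genes had 1.39 ± 0.55 (Lypd1), 1.42 ± 0.43 (Cnr1), 0.78 ± 0.60 (Pcdh19), 1.15 ± 0.44 (Parva) and 0.20 ± 0.58 (Clstn2) against other GAD wells, none of them called. Ntm and Cplx1 were called against the Mc4r, Calcr or Asb4 wells (1.93 ± 0.20 and 1.45 ± 0.13). Gpr83 was not (1.14 ± 0.52, edgeR adjusted p = 0.197). For Nts the values were -4.31 ± 0.52 here and 0.10 ± 0.61 against other GAD wells, and the difference between the comparisons was not tested.

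**Figure D5:**
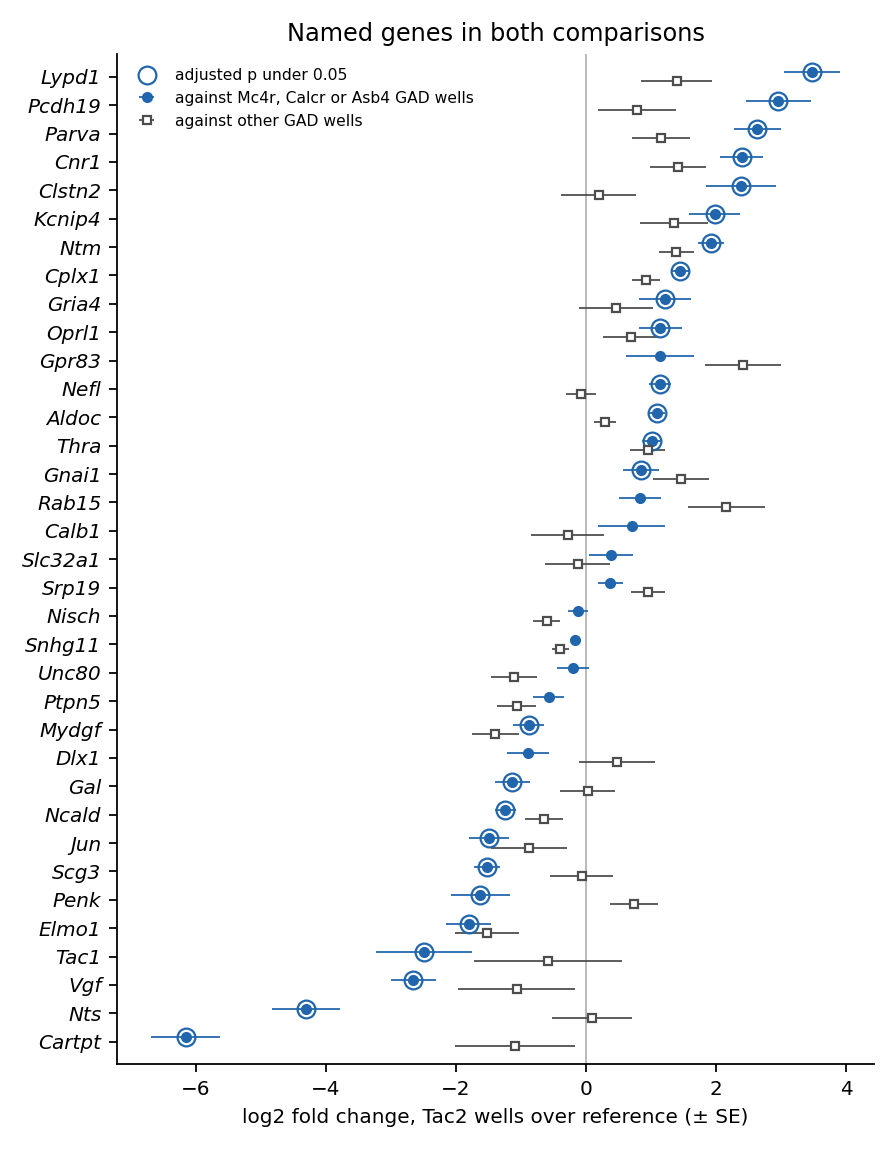
Log2 fold changes (± SE) of genes named in the text or by the naming criteria and tested in both comparisons, Tac2 wells over Mc4r, Calcr or Asb4 GAD wells (filled circles, 12 plates, ringed when the edgeR adjusted p was under 0.05) and over other GAD wells (open squares, 7 plates, none called). Cartpt at -6.15 and Lypd1 at 3.47 mark the ends of the first, and Gpr83 at 2.42 is the farthest of the second.

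Ion channel and calcium-binding genes are read beside the 5.12% of all genes called higher and 6.6% called lower. Of 52 potassium channel genes 13 were tested, 3 were higher (Kcnip4 1.98 ± 0.39, Kcnd2 0.97 ± 0.32, Kcnc1 0.93 ± 0.23) and 1 lower (Kcnj9 -1.50 ± 0.50). Of 36 sodium, calcium and HCN channel genes 15 were tested, 3 sodium channel genes were higher (Scn2b 0.97 ± 0.18, Scn8a 0.92 ± 0.30, Scn1a 0.88 ± 0.21) and 1 lower (Scn9a -1.38 ± 0.34). Their medians were 0.32 and 0.24. Of 10 calcium-binding protein genes tested, 3 neuronal calcium sensors were higher (Hpca 1.00 ± 0.15, Vsnl1 0.85 ± 0.18, Hpcal1 0.80 ± 0.26) and 1 lower (Ncald -1.24 ± 0.16), and Calb1 was at 0.70 ± 0.51 (edgeR adjusted p = 0.469). Kcnj9 lost its call without plate 4, 8, 11, 12, 14, 15, 17, 18 or 19 (-1.60 to -1.25, adjusted p 0.0541 to 0.0930).

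Few receptors reached the test. The counts of each list here are also read beside the 5.12% of all genes called higher and 6.6% called lower. Of 38 neuropeptide receptor genes 3 were tested, and Oprl1, the nociceptin receptor, was higher (1.15 ± 0.33, edgeR adjusted p = 0.0189; 0.94 to 0.99 without plate 3 or 13, adjusted p 0.0586 and 0.0595). Of 8 tested receptors for outputs of AGRP neurons, Gabrb1, a GABA-A receptor subunit, was higher (0.91 ± 0.18). Thra was higher (1.01 ± 0.15) and Nr3c1 lower among 3 tested hormone receptors, and Gria4, an AMPA receptor subunit, was the 1 of 9 glutamate receptors called (1.22 ± 0.40, edgeR adjusted p = 0.0445). Gria4 lost its call without plate 3, 8, 9, 11, 12, 13 or 18 (1.07 to 1.23, adjusted p 0.0609 to 0.116). Of 14 tested synapse organisers 1 was higher and 1 lower, the latter Sema5a, an axon guidance protein (-3.53 ± 0.55). Sema5a also passed the count filter through the reference, with 29 UMIs in 5 of 64 Tac2 wells. Among pan-neuronal genes Nefl, a neurofilament (1.13 ± 0.17), Rbfox3 (0.71 ± 0.20) and Uchl1 (0.24 ± 0.08) were higher and none of 7 lower. Aldoc was higher (1.09 ± 0.13), the 1 tested gene of the astrocyte list, whose pooled level was 774 CPM in Tac2 wells and 387 in the reference. Whether depth or cell quality moved with these values was not tested beyond thinning to 15000 UMIs, which left 120 genes higher and 127 lower of 2142.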

How the data were processed

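Single cells of 19 plates were measured by Smart-SCRB. The authors deposited 1 table of counts, whole numbers for each gene in each well, and a table of wells with their number of genes and their ERCC spike-in share in percent. The submitters' processing notes list bcl2fastq 2.20, cutadapt 2.1.0, STAR 2.7.5c, STARsolo 2.7.5c, Seurat 2.3.4, R 3.4.3 and the build GRCm38. The annotation release, use of strand and collapsing of UMIs are not given in the sources used here, so antisense or overlapping genes may share counts. Rows that name no mouse gene (6.48% of counts in wells with the shared limits) were left out. LHA wells of a plate summed to between 1835746 and 5070306 UMIs, and Tac2 wells held 10757 to 93101. No doublet caller was run on hand-picked cells.

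The sums of a class in each plate entered edgeR 4.0.16 on R 4.3.3 with plate as a block (quasi-likelihood test with robust dispersions, two-sided, TMM scaling, genes kept by filterByExpr), with Benjamini-Hochberg adjustment over all genes tested and a threshold of 0.05. The genes that chose wells (Tac2, Hcrt, Pmch, Mc4r, Calcr, Asb4, Snap25, Gad1 and Gad2) entered the fit and were not tested. The SE was derived from the size of the log2 fold change and the F statistic, so it restates the test. Wells were thinned without replacement. Intervals are Clopper-Pearson. Coordinates of Tac2 are from GENCODE M21, in which 99.7% of 52636 identifiers were found. Promoters were found for 5 genes in the RefSeq table. The script was tested on simulated data.

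Members and the 29 gene lists were chosen with earlier results of these data known. Genes that met the naming criteria were named as the 12 (second comparison 6) largest changes per direction and up to 4 per list, without predicted, mitochondrial and choosing genes, with the 8 smallest p per direction named without a call where fewer than 8 passed. A set of 27 genes was always named, and further list members past the threshold are named to complete their counts. Some genes that these criteria name are not reported here. Alternatives numbered 37 planned and 4 added after the data were seen, with DESeq2 1.42.0 and limma 3.58.1 on means of log2(CPM + 10) among them.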

Additional observations from a re-analysis of the deposited data

Results flagged for a closer look

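Calb1, for calbindin, stood apart in 1 plate of the first comparison. Its log2 difference of CPM + 10 between Tac2 wells and other GAD wells was 2.76 in plate 8, against -1.30 to 0.25 in the other 6 plates, a gap of 0.619 of the whole range. In plate 8 Calb1 had 57.6 CPM in Tac2 wells and 0 in other GAD wells, so the added 10 CPM shapes this value. Chance alone puts about 1 in 20 groups past this limit.

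Reads of WPRE, an element of expression constructs that is not a mouse gene, were counted in the deposited table outside the mouse genes used above. A WPRE UMI was present in 13 of 67 Tac2 wells (19.4%) and in 16.7% of other GAD wells. The share was 26.9% in Mc4r, Calcr or Asb4 GAD wells and 32.9% in Hcrt wells. These shares were not taken at an equal depth (median 25452 UMIs in Tac2 wells and 49096.5 in Hcrt wells). Scaled to mouse UMIs, WPRE was at 15.3 CPM in Tac2 wells and 13.8 CPM in Hcrt wells. Other GAD wells had 12.4 CPM and Mc4r, Calcr or Asb4 GAD wells 22.2 CPM. WPRE was in no ERCC or empty well under 1000 genes (exact upper limit 3.52%) and in 0 of 68 qRNA wells. Tac2 wells held 30 WPRE UMIs in all. In the same wells tdTomato, the reporter of these mice, had 2 UMIs and the Cre row 0, and Hcrt wells held 12 of each. The source of the WPRE counts was not tested.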

How the results depend on the processing

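Against other GAD wells, genes called higher numbered 3 with no filter on low counts (0.0157% of genes tested), 5 with DESeq2 (0.0261%) and 5 with limma (0.0963%). The DESeq2 shares here and below are over all genes with a p-value. DESeq2's own filter may leave some of these without an adjusted p, so its shares cannot be set beside those of edgeR. Its adjustment also covered the genes that chose wells. Genes called lower numbered 2 with no filter (0.0104%) and 3 with DESeq2 (0.0157%). Leaving out single plates gave 0 to 1 higher (0% to 0.0287%, the 1 call without plate 4) and 0 lower. The other settings gave 0 in both directions. limma moved the median of all genes to 0.13. Of 625 values of the 27 named genes under these settings, none of them called in the comparison itself, 23 had the opposite sign.

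Against Mc4r, Calcr or Asb4 GAD wells 200 genes were higher (5.12%) and 258 lower (6.6%). These became 126 and 447 with no filter (0.514% and 1.82%), 120 and 127 with thinned wells (5.602% and 5.93%), 367 and 515 with DESeq2 (1.497% and 2.101%), and 52 and 83 with Hcrt and Pmch under 0.2% (1.30% and 2.07%), where 7 plates were left. With 1 well per class allowed 3.14% of genes were higher. Single plates left out gave 165 to 195 higher and 210 to 239 lower. Of 30 named genes called there, 9 lost the call under at least 1 setting (Clstn2, Gal, Gria4, Kcnip4, Kcnj9, Oprl1, Penk, Scn9a and Tac1), all but Kcnj9 with the 0.2% limit among others. Clstn2 (1.88, adjusted p = 0.239), Kcnip4 (1.60, 0.0776) and Scn9a (-0.67, 0.556) lost it there alone. Penk and Tac1 also lost it with no filter, with at least 3 wells and with thinned wells (adjusted p 0.0616 for Penk and 0.0916 for Tac1). None of these 30 genes changed sign. The cause of these losses was not tested beyond the fewer plates, wells or UMIs that a setting leaves.

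The difference in UMIs per well was 6547 with 1 well per class allowed (14 plates, permutation p = 0.0722) and 4592 with means over wells in place of medians (exact permutation p = 0.0156). The difference in genes per well was 481 without thinning and 90.1 to 144 when single plates were left out, with an exact permutation p of 0.0313 without plate 8. Thinned to 18000 UMIs, Tac2 wells had 3879 genes and other GAD wells 3775 over 6 plates (exact permutation p = 0.219). Pairing of samples between groups does not apply, because there is a single group of samples. The classes of wells were compared within plates, with plate as the block, and without that block 215 genes were higher and 235 lower in the second comparison and 0 in the first. Genes with few UMIs, such as Tacr1 and Lhx6, lay below the depth needed for a test.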

Other observations

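Hormone receptors were detected in some of the Tac2 wells. Prlr, the prolactin receptor, had a UMI in 26 of 67 wells (38.8%, 27.1 to 51.5) and Esr1, an oestrogen receptor, in 12 (17.9%, 9.61 to 29.2). Other GAD wells had them in 27.3% and 13.6% (28.1% and 10.53% at an equal depth of 14000 UMIs). Mc4r, Calcr or Asb4 GAD wells had them in 18.1% and 12.9% (15.8% and 8.86% at that depth). Hcrt wells had them in 5.56% and 8.97%, and at an equal depth of 14000 UMIs the shares were 31.7% against 2.14% for Prlr and 14.3% against 3.32% for Esr1. Pgr, the progesterone receptor, had a UMI in 14.9% of Tac2, 16.7% of other GAD and 22.8% of Mc4r, Calcr or Asb4 GAD wells. Zfhx3, a transcription factor, had a UMI in 53 Tac2 wells (79.1%), a share not compared with other classes here.

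Tac2 was also counted outside these wells. Of LHA wells with at least 1% Hcrt, 5 had at least 3 Tac2 UMIs, and the highest of the Hcrt wells held 66.

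One well of plate 15 labelled Empty had 5682 genes and 100707 UMIs, with 1855 Cartpt, 701 Nts, 127 Gal, 148 Crh, 51 Asb4 and 10 Calcr UMIs, so its counts go against its label. It entered no comparison, and in the other ERCC and empty wells the highest counts were 2 for Cartpt and 1 each for Nts and Gal.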
